A study of Mus musculus with 16 samples.

Results

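The B lineage set comprised 36 genes of mouse B lymphocyte development, chosen by name from 34650 gene names on the array as genes of pro-B, pre-B and mature B cells. All 36 were on the array, and all 36 had a probe bright enough to be tested. B cells arise in bone marrow from progenitors that switch on EBF1 and PAX5, rearrange their heavy chain locus with the RAG recombinase, and then test the new heavy chain by pairing it with the surrogate light chain, made of VpreB and lambda-5, in the pre-B receptor. Cells that pass replace the surrogate light chain with a rearranged light chain, carry the B cell receptor with its signal subunits CD79A and CD79B, and gain the surface proteins of mature B cells, some of which return to the marrow from the blood. The genes of these stages therefore mark successive compartments of 1 lineage.

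Whole bone marrow of 16 mice was measured, 1 Agilent 1-colour array per mouse, in a study of what loss of sympathetic drive does. The 8 KO chimeras were C57BL/6J mice, lethally irradiated with 950 rad, that received whole marrow of donors with a double adrenergic receptor knockout, by 1 retro-orbital injection at a stated ratio of 1:4, donor to C57BL/6J. They were given 2 to 3 months to recover. The 8 controls carry the same label of irradiated C57BL/6J recipients, with no donor named, so graft, donor strain background and receptor loss cannot be told apart. Only the transplanted cells and their progeny carry the mutation, and what the ratio refers to is not explained in the labels. Age and sex are not stated in the labels.

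Levels are given throughout as log2 of a probe's signal over the 75th percentile of its array, so 0 is the brightness of that percentile and differences are KO chimera minus control. In bulk marrow, fewer cells of a type and less RNA per cell cannot be told apart. Neutrophil genes, which are abundant in marrow, had a mean level of 8.02 to 8.56 in KO chimeras and 7.99 to 8.40 in controls. The brighter probe of Adrb1, which the donors lack, was -2.99, -2.41 and -2.19 in KO chimeras and -2.58, -2.51 and -2.34 in controls. Whether that probe lies in the disrupted stretch is not stated in the labels, so it does not check them, and every direction below rests on the labels KO chimera and control as deposited. Array brightness differed between mice, with a 75th percentile of 127 to 545 in KO chimeras and 231 to 558 in controls. Control 3, the only array on its slide, stood apart in these genes: it was the lowest control for 29 of 36 members. Values without it are therefore given beside the main results it touches.

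Of the 36 members, 6 were higher and 4 were lower in KO chimeras by limma with Benjamini-Hochberg adjustment over all 23042 gene names tested (adjusted p under 0.05). Of all genes tested, 22.3% passed in either direction. Higher members made up 16.7% of the set, where 10.2% of all genes tested were higher. Lower members made up 11.1%, where 12.1% of all genes were lower, so the number of lower members was near the background. The median difference was 0.10 over the 36 members and -0.02 over all genes tested. The higher genes were Vpreb1, Vpreb2, Igll1, Dntt, Il7r and Btk, and all but Btk belonged to the pro-B and pre-B group. The lower genes were Faim3, Bank1, Cr2 and Cd38. Without control 3, all 10 calls held and Cd79a joined the lower genes (-0.75 ± 0.23, adjusted p = 0.0325).

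**Figure D1:**
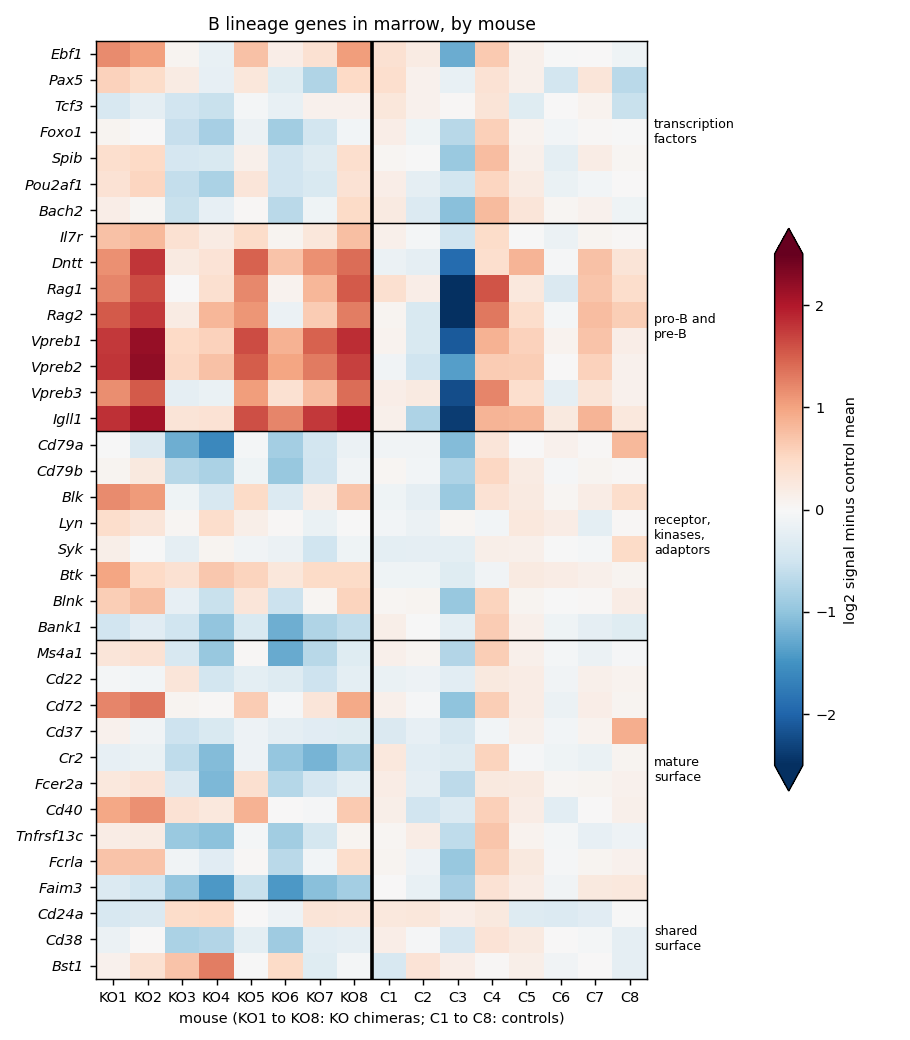
Level of each of the 36 B lineage genes (rows, ordered by role) in each mouse (columns, KO1 to KO8 then C1 to C8), as log2 signal minus the mean of the 8 controls; red is above and blue below that mean, and the scale ends at 2.5 in both directions. The pro-B and pre-B rows are at their reddest in KO chimeras 1, 2, 5 and 8 and at their bluest in control 3.

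With each gene read from its brightest probe, the surrogate light chain genes carried the largest differences in the set. Vpreb1 and Vpreb2 encode the VpreB part and Igll1 the lambda-5 part, and the array reads each of them with 1 probe on chromosome 16 of mm9: Igll1 at chr16:16861104-16861163 (minus strand), Vpreb1 at chr16:16868559-16868618 (minus strand) and Vpreb2 at chr16:17981114-17981173 (plus strand). The Igll1 and Vpreb1 probes lie 7395 bases apart. Vpreb1 and Vpreb2 are close copies, so the probes are shown to let their difference be seen, whole for Igll1 and as the first 30 bases for the others. The Vpreb1 and Vpreb2 probes share no run longer than 6 bases with each other. Whether either probe also matches RNA of the other gene was not tested. No capitals are used in these lines.
Igll1 probe: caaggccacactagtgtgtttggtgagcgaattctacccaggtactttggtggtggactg
Vpreb1 probe, first 30 bases: aggggtagaacgtgaggttttgcagagcct
Vpreb2 probe, first 30 bases: aagaagagaatggagagagagtgggaagga

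The 250 bases before the start of each of these genes (RefSeq, GRCm38.p6) are shown because their levels moved together. Capitals mark motifs searched on both strands. CCCNNGGG is a core written for EBF1 sites. The E-boxes CAGGTG (read CACCTG on the opposite strand) and CAGCTG are bound by E proteins such as E2A. The octamer ATGCAAAT is bound by Oct factors. None of these overlaps another in the lines shown. CAGGTG was in all 3 windows, 8 bases before the start in Igll1, 88 in Vpreb1 and 232 in Vpreb2. The Vpreb1 and Vpreb2 lines run nearly alike for a long stretch around this site, so their matches are not independent. CAGCTG was 158 bases before the start in Igll1 and 60 in Vpreb2, and CCCNNGGG 231 before it in Igll1. Over all 32851 promoter windows of 300 bases (250 before and 50 after a start), CCCNNGGG was in 13.7%, CAGGTG in 20.2%, CAGCTG in 16.3% and ATGCAAAT in 1.74%. Among the 29 member genes with an entry, which have 33 windows, CCCNNGGG was in 5 windows, CAGGTG in 16, CAGCTG in 7 and ATGCAAAT in 2. Such matches describe letters and are no evidence of binding.
Igll1, chr16:16863986-16864235, minus strand: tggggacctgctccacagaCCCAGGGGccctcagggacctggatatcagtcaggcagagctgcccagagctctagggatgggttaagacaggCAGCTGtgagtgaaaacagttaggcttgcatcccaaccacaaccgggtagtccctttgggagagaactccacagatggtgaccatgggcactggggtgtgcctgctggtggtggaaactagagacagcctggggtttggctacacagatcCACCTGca
Vpreb1, chr16:16869256-16869505, minus strand: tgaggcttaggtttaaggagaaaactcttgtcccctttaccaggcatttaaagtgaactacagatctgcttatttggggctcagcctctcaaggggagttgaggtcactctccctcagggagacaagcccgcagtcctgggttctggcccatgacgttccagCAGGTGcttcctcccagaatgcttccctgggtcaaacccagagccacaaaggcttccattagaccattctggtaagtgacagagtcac
Vpreb2, chr16:17980315-17980564, plus strand: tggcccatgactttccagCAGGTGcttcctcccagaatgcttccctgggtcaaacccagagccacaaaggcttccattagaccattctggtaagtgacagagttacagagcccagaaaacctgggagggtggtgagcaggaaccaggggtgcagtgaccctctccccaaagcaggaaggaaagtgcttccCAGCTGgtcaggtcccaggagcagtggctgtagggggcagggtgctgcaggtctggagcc

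Vpreb1 was 2.89, 3.95 and 4.56 (lowest, median, highest) in KO chimeras and 0.28, 2.52 and 3.25 in controls. The difference was 1.36 ± 0.37 (SE, n = 8 each), a 2.56-fold higher signal (adjusted p = 0.0131). The groups overlapped, with 6 of 8 KO chimeras above every control and all 8 above the control median. Vpreb2 was 0.20, 1.08 and 1.89 in KO chimeras and -1.70, -0.26 and 0.32 in controls, a difference of 1.34 ± 0.29 (adjusted p = 0.00299), with 7 of 8 KO chimeras above every control. Igll1 was -0.02, 1.34 and 1.72 in KO chimeras and -2.73, -0.10 and 0.50 in controls, a difference of 1.40 ± 0.42 (adjusted p = 0.0243). For all 3 genes the lowest control was control 3. Without it the differences were 1.05 ± 0.26 for Vpreb1, 1.15 ± 0.25 for Vpreb2 and 1.06 ± 0.31 for Igll1, and all 3 stayed past the test.

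Mice fell in a similar order for the 3 genes. KO chimeras 1, 2, 5 and 8 were high, with KO chimera 7 above KO chimera 5 for Igll1, and KO chimeras 3 and 4 were low, the last pair inside the control range for Vpreb1 and Igll1. The difference was positive on 4 of the 5 slides that held both groups. On the remaining slide, which held KO chimeras 3 and 4 and control 4, it was -0.32 for Vpreb1, -0.02 for Vpreb2 and -0.50 for Igll1. Control 4 was the highest control for 25 of 36 members. Between scan days the difference in Vpreb1 was 1.02 on the first day and 1.69 on the second, and in Igll1 0.96 and 1.83, each day with 4 mice per group. Control 3 was scanned on the first day, and these first-day differences lean on it. In Vpreb1, first-day KO chimeras 2, 3, 4 and 6 were at 4.56, 2.89, 2.96 and 3.26. Controls 4, 5 and 7 were at 3.25, 2.97 and 3.10, and control 3 at 0.28. In Igll1 those KO chimeras were at 1.72, -0.02, 0.01 and 0.87. Controls 4, 5 and 7 were at 0.49, 0.47 and 0.50, and control 3 at -2.73. First-day differences without control 3 were not computed.

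Il7r and Dntt were the other pro-B and pre-B genes past the test. Il7r encodes the receptor for interleukin-7, on which early mouse B cells depend, and was -0.16, 0.19 and 0.56 in KO chimeras and -0.73, -0.23 and 0.22 in controls. Its difference was 0.46 ± 0.13 (adjusted p = 0.0181), with 4 of 8 KO chimeras above every control. Dntt encodes terminal transferase, which adds untemplated bases at heavy chain joins in pro-B cells, and was 1.64, 2.56 and 3.20 in KO chimeras and -0.50, 1.56 and 2.27 in controls. Its difference was 1.02 ± 0.33 (adjusted p = 0.0360), with all 8 KO chimeras above the control median. That call was narrow: leaving out any 1 of KO chimeras 1, 2, 5, 7 and 8 or controls 1, 2 and 6 moved the adjusted p for Dntt to between 0.0520 and 0.0705. Without control 3 the difference was 0.39 ± 0.12 in Il7r (adjusted p = 0.0345) and 0.75 ± 0.24 in Dntt (adjusted p = 0.0357). With slide as a block, Il7r gave 0.36 and was not past the test (adjusted p = 0.0874). On the slide of KO chimeras 3 and 4 and control 4, the difference was -0.16 in Il7r and -0.14 in Dntt.

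**Figure D2:**
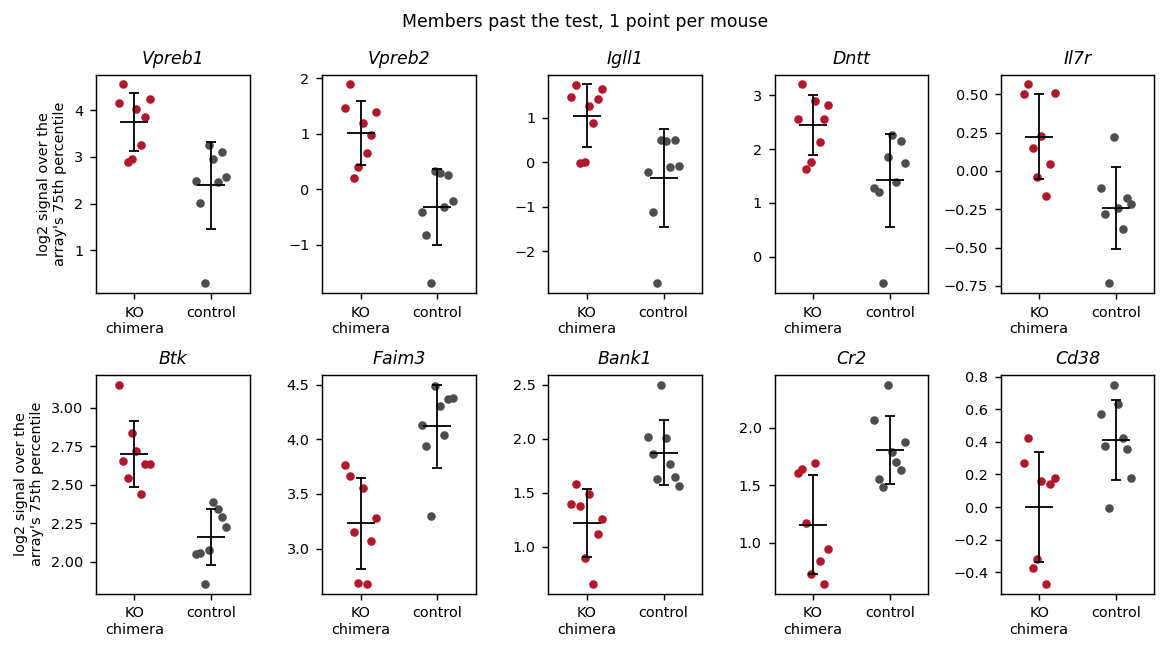
Log2 signal over the array's 75th percentile in each of the 8 KO chimeras (red) and 8 controls (grey) for the 10 members past the test, with the mean and SD as bars. The Btk panel is the only one in which the groups do not overlap, and in the 5 pro-B and pre-B panels control 3 is the lowest mouse.

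The remaining pro-B and pre-B genes had higher means in KO chimeras but did not pass. Rag1 and Rag2 encode the recombinase that cuts the receptor loci. Rag1 was -1.37, -0.36 and 0.25 in KO chimeras and -4.56, -1.05 and 0.19 in controls, a difference of 0.87 with a 95% interval of -0.18 to 1.91 (adjusted p = 0.237). Rag2 was -3.69, -2.58 and -1.78 in KO chimeras and -6.32, -3.29 and -2.22 in controls, a difference of 0.90 (interval -0.06 to 1.86, adjusted p = 0.177). The Rag2 probe was well above background in all 8 KO chimeras and in 7 controls. Both genes had their lowest value, by a wide gap, in control 3, and without it the differences were 0.41 for Rag1 and 0.50 for Rag2. Vpreb3, a VpreB relative, was 3.82, 4.97 and 5.60 in KO chimeras and 1.84, 4.25 and 5.28 in controls, a difference of 0.74 (interval -0.08 to 1.56, adjusted p = 0.194). Without control 3 it was 0.42. On the slide of KO chimeras 3 and 4 and control 4, the difference was -1.36 in Rag1, -0.80 in Rag2 and -1.41 in Vpreb3. In all, 5 of the 8 pro-B and pre-B genes were higher (62.5%, where 10.2% of all genes tested were higher). None was lower, and the median difference of the 8 was 0.96.

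Btk was the only member for which all KO chimeras lay above all controls, and none lay wholly below. Of all genes tested, 6.14% had groups that did not overlap, 2.87% with KO chimeras above and 3.27% with KO chimeras below. The count of members without overlap was thus near the background. Btk encodes Bruton's tyrosine kinase, which acts downstream of the pre-B and B cell receptors and is also made by myeloid cells. Btk was 2.44, 2.64 and 3.15 in KO chimeras and 1.86, 2.15 and 2.39 in controls, a difference of 0.54 ± 0.10 and 1.45-fold (adjusted p = 0.00107). Its second probe, which lies on the same gene on chromosome X, gave 0.68 in the test over all probes (adjusted p = 0.0046). The difference was positive on all 5 slides, between 0.20 and 0.71.

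No other gene of the receptor and its kinases rose. Cd79a and Cd79b encode the signal subunits of the B cell receptor and are made from the pro-B stage on. Cd79a was 1.82, 3.02 and 3.42 in KO chimeras and 2.36, 3.45 and 4.25 in controls, a difference of -0.59 (interval -1.14 to -0.04, adjusted p = 0.116). All 8 KO chimeras lay below the control median. Cd79a passed without control 3, as given above, and with slide as a block (-0.77, adjusted p = 0.00994). Control 3 was alone on its slide, so the block takes it out as well, and these settings are not independent. Cd79b was 4.48, 5.13 and 5.68 in KO chimeras and 4.65, 5.47 and 5.95 in controls, a difference of -0.35 that did not pass (adjusted p = 0.211), and -0.46 without control 3 (adjusted p = 0.0725).

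Bank1, a scaffold protein of B cell receptor signalling, fell. It was 0.66, 1.32 and 1.59 in KO chimeras and 1.56, 1.81 and 2.50 in controls, and 7 of 8 KO chimeras lay below every control. The difference was -0.65 ± 0.15 (adjusted p = 0.00435), and the second probe gave -0.76 (adjusted p = 0.0015 over all probes). The kinases Blk, Lyn and Syk and the adaptor Blnk did not pass, with differences of 0.34, 0.15, -0.11 and 0.12. Without control 3 the difference was 0.21 in Blk and -0.01 in Blnk, so no direction is given for Blnk. Blnk lies next to Dntt on chromosome 19, with 130450 bases between their probes. Without control 3 the difference in Dntt was 0.75.

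None of the 7 transcription factors of the lineage passed the test in either direction. Ebf1, which acts first, was 0.67, 1.42 and 2.04 in KO chimeras and -0.39, 0.93 and 1.52 in controls. Its difference was 0.55 (interval 0.02 to 1.08, adjusted p = 0.131), and 0.37 without control 3. It passed with array weights (0.68, adjusted p = 0.0341) and on the second scan day alone (0.72, adjusted p = 0.0481). Pax5, which holds cells to the lineage, was -2.59, -1.58 and -1.26 in KO chimeras and -2.51, -1.72 and -1.42 in controls, a difference of 0.10 (interval -0.34 to 0.53). The other factors were Tcf3 (E2A) at -0.21, Foxo1 at -0.36, Spib at -0.02, Pou2af1 at -0.08 and Bach2 at -0.10, with a median of -0.08 over the 7. The second, dimmer probes of Tcf3 and Bach2 gave differences of the other sign, 0.42 and 0.55, so no direction is given for these genes. The same held for the second probes of Syk (0.14), Cd22 (0.17), Cd37 (0.02) and Bst1 (-0.11).

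**Figure D3:**
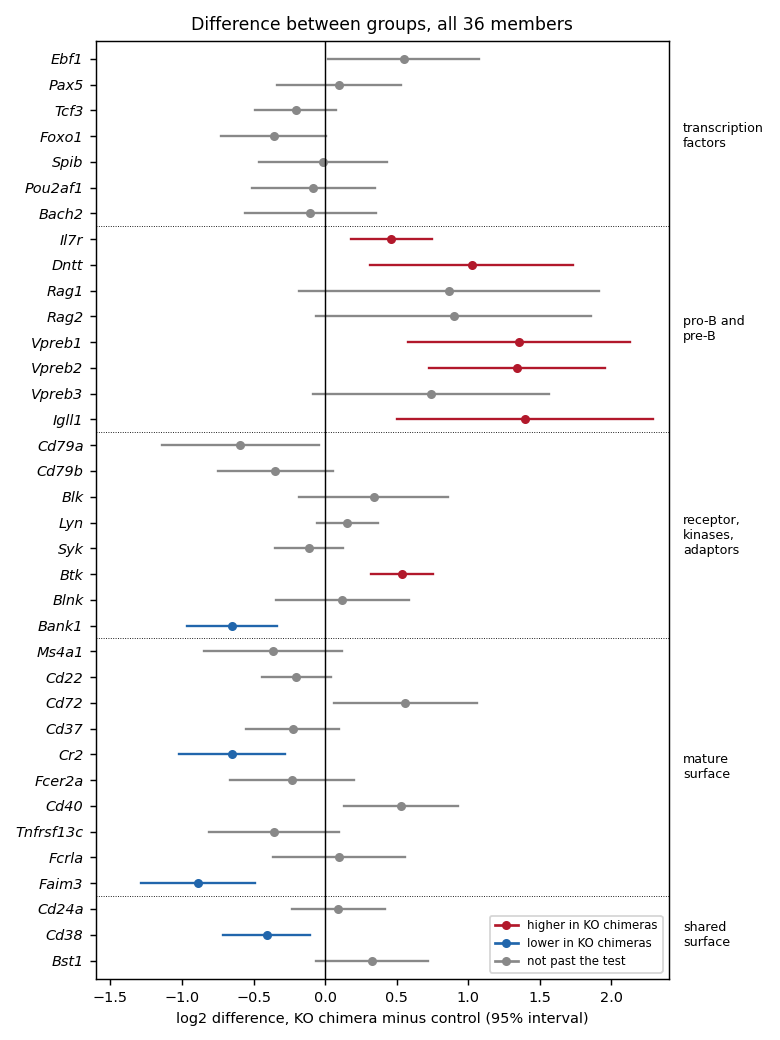
Log2 difference between KO chimeras and controls (x axis) for all 36 members (rows, by role), with 95% intervals from limma; red and blue mark genes past the test as higher and lower. The 8 pro-B and pre-B genes all lie right of 0, while the 10 mature surface genes lie on both sides, from -0.89 for Faim3 to 0.56 for Cd72.

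Among the surface proteins of mature B cells, Faim3 and Cr2 fell. Faim3, now named Fcmr, encodes the receptor for IgM and had the largest fall of any member when each gene was read from its brightest probe. It was 2.68, 3.21 and 3.77 in KO chimeras and 3.30, 4.22 and 4.49 in controls, a difference of -0.89 ± 0.19 (adjusted p = 0.00247). All 8 KO chimeras lay below the control median and 5 lay below every control. Control 3 was the lowest control, and without it the adjusted p was 0.000412. Cr2 encodes complement receptor 2 (CD21), found on mature follicular and, at high level, marginal zone B cells. It was 0.65, 1.06 and 1.69 in KO chimeras and 1.48, 1.74 and 2.37 in controls, a difference of -0.65 ± 0.18 (adjusted p = 0.0126), and its second probe gave -0.75 (adjusted p = 0.0106 over all probes). Faim3, Cr2 and Bank1 were lower on all 5 slides.

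The other 8 mature surface genes did not pass, and they did not lean one way. The group is named for most of its genes, and the place and stage of each product were not checked. Cd72 was closest to Vpreb3 in controls (r = 0.99) and to Blk in KO chimeras (r = 0.98). Ms4a1 (CD20) was 2.76, 3.68 and 4.40 in KO chimeras and 3.31, 4.06 and 4.66 in controls, a difference of -0.36 (interval -0.85 to 0.12). The difference was -0.20 in Cd22, -0.23 in Cd37, -0.23 in Fcer2a (CD23) and 0.10 in Fcrla. Fcrla gave -0.04 without control 3. Cd72, an inhibitory coreceptor, was 2.96, 3.46 and 4.32 in KO chimeras and 2.00, 3.09 and 3.62 in controls, a difference of 0.56 (adjusted p = 0.103), and its second probe, which overlaps the first, gave 0.60. Cd40, the receptor for T cell help, was 0.34, 0.87 and 1.50 in KO chimeras and -0.11, 0.43 and 0.96 in controls, a difference of 0.53 that just missed (adjusted p = 0.0521). It passed without KO chimera 4, 6 or 7 or without control 4, with adjusted p down to 0.0244. The median difference of the 10 mature surface genes was -0.23.

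Tnfrsf13c, the receptor for the B cell survival factor BAFF, was read differently by its 2 probes. The brighter one, at chr15:82052203-82052262 on mm9, minus strand, gave a difference of -0.36 (adjusted p = 0.266). The dimmer one, at chr15:82054616-82054675, minus strand, averaged -2.12 ± 0.45 in KO chimeras and -0.57 ± 0.34 in controls (SD, n = 8 each), a difference of -1.55 (adjusted p = 1.27e-05 over all probes), and both probes were above background on all 16 arrays. They are shown so that the 2 stretches can be told apart, the brighter one as its first 30 bases. A value taken as the mean of both probes passed at -0.95 (adjusted p = 0.000546). Which stretch of the gene differs between the groups, and whether donor strain sequence differs under a probe, was not tested.
Tnfrsf13c dimmer probe: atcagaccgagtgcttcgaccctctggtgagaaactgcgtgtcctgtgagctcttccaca
Tnfrsf13c brighter probe, first 30 bases: ctatgagtaagaagcttttctttgagctgg

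Of the 3 surface markers that other lineages share, 1 fell. Cd38, an enzyme that uses NAD and is found on many blood cells, was -0.47, 0.15 and 0.43 in KO chimeras and -0.01, 0.40 and 0.75 in controls, a difference of -0.41 ± 0.14 (adjusted p = 0.0493). This call was the least firm of the 10: it was lost on leaving out any 1 of KO chimeras 3 to 8 or controls 1, 2, 4, 5, 6 and 7, with an adjusted p for Cd38 between 0.0511 and 0.0944, and under the replicate block (0.0583). It was lost in 9 settings other than leaving out a mouse, among them the authors' normalised values, quantile normalisation and no filter on dim probes. Cd24a (heat stable antigen), also high on red cell precursors, gave 0.09, and Bst1 (CD157, a relative of Cd38 that lies next to it on chromosome 5) gave 0.33.

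Within each group, mice that were high in early genes were also high in mature genes, and the 2 stages were offset from each other in KO chimeras. The mean deviation of the 8 pro-B and pre-B genes from the control mean was 0.24, 1.14 and 1.75 (lowest, median, highest) in KO chimeras and -2.06, 0.17 and 0.92 in controls. The same measure over the 10 mature surface genes was -0.65, -0.19 and 0.33 in KO chimeras and -0.61, 0.03 and 0.45 in controls. The first minus the second was 0.56, 1.17 and 1.55 in KO chimeras and -1.44, 0.07 and 0.57 in controls, and 7 of 8 KO chimeras exceeded every control. Control 3 held the lowest control value, and without it the lowest was -0.10. These means were formed after the values were known and carry no test. KO chimeras 1 and 2 were high and KO chimeras 4 and 6 low in mature genes: KO chimera 2 was the highest of its group for 18 members and KO chimera 6 the lowest for 13.

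**Figure D4:**
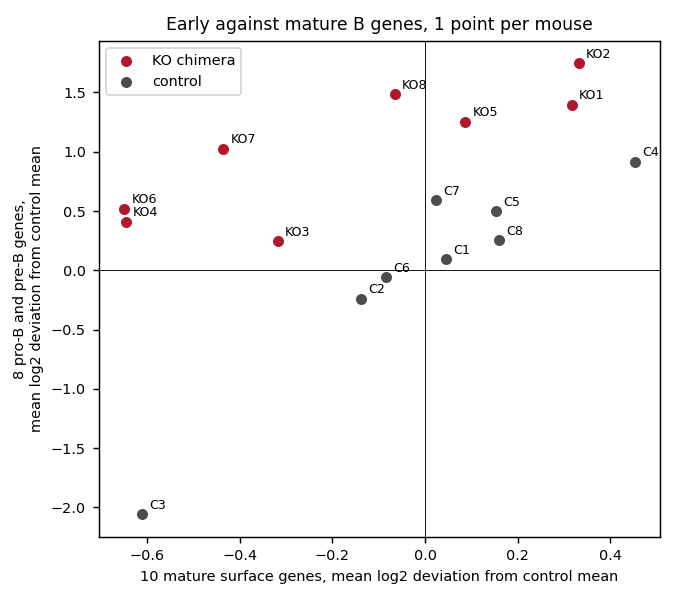
Mean deviation from the control mean of the 8 pro-B and pre-B genes (y axis) against that of the 10 mature surface genes (x axis), both on the log2 scale, 1 point per mouse, KO chimeras in red and controls in grey. In both groups mice high on one axis are high on the other, and KO chimeras sit above controls of like mature level.

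The members moved together from mouse to mouse in both groups. Over the 630 pairs of members, the median Pearson correlation across mice was 0.71 in KO chimeras and 0.72 in controls, whereas over all pairs of genes tested it was 0.00 in KO chimeras and 0.04 in controls. A correlation of at least 0.5 was found for 66.4% of member pairs in KO chimeras and 64.4% in controls, against 15.7% and 15.4% of all gene pairs. These are descriptions over 8 mice, which share array brightness and cell makeup across all their genes. In controls much of the value rested on control 3: without it the median was 0.48, the lowest of any mouse left out. In KO chimeras leaving out 1 mouse gave 0.67 to 0.77.

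Array brightness moved with the members in some sets of mice. The median correlation of members with log2 of the array's 75th percentile was -0.15 in KO chimeras and -0.06 in controls, but -0.65 in controls without control 3. With brightness regressed out, a step chosen after seeing the data, the median pair correlation was 0.77 in KO chimeras, 0.76 in controls and 0.36 in controls without control 3. The share of brightness in the remaining control covariation was not tested further.

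Covariation was tightest within the early stage. Among the 28 pairs of pro-B and pre-B genes the median was 0.92 in KO chimeras and 0.94 in controls, and 0.77 in controls without control 3. Among the 45 pairs of mature surface genes it was 0.82 in KO chimeras and 0.75 in controls, and 0.73 without control 3. Vpreb1 was closest to Vpreb3 in KO chimeras (r = 0.99) and to Igll1 in controls (r = 0.99). Ebf1 was closest to Tnfrsf13c in KO chimeras (r = 0.98) and to Vpreb3 in controls (r = 0.96). Some members stood outside this pattern: Lyn, a kinase also abundant in myeloid cells, had a median correlation with the other members of 0.18 in KO chimeras and -0.05 in controls, Cd24a of -0.57 in KO chimeras and -0.05 in controls, and Bst1 of -0.52 in KO chimeras and -0.25 in controls. Tcf3 had 0.25 in KO chimeras and 0.06 in controls, and Syk 0.30 and 0.45. Cd22, a mature B surface marker, had 0.18 in KO chimeras but 0.74 in controls. Pax5 (0.32) and Cd37 (0.30) were low in controls, with 0.65 and 0.64 in KO chimeras. Btk reached only 0.41 in KO chimeras and 0.48 in controls, and -0.15 in controls without control 3.

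Chosen pairs, some of shared function and some joining an early to a mature gene, were tested 1 at a time, 12 in each group, by exact two-sided permutation with adjustment over all 24. They were chosen with earlier results of these data known. The permutation asks only whether the genes of a pair are unrelated. As the median over all member pairs was 0.71 in KO chimeras and 0.72 in controls, a pass does not set a pair apart from the other members. Vpreb1 and Igll1, the parts of the surrogate light chain, gave r = 0.956 and rho = 0.976 in KO chimeras (exact p = 0.000198, adjusted 0.00238) and r = 0.989 and rho = 0.952 in controls (exact p = 0.000149, adjusted 0.00238). Without the 2 mice farthest from the median of Vpreb1, r was 0.947 in KO chimeras and 0.975 in controls. Rag1 and Rag2, whose probes lie 8030 bases apart, gave r = 0.917 and rho = 0.929 in KO chimeras (exact p = 0.00184, adjusted 0.0100) and r = 0.974 and rho = 0.952 in controls (exact p = 0.00139, adjusted 0.0100). Their r without the 2 farthest mice was 0.804 in KO chimeras and 0.652 in controls, the control pair left out being controls 3 and 4. In KO chimeras, Dntt with Rag1 (r = 0.918, rho = 0.905, exact p = 0.00208, adjusted 0.0100), Cr2 with Fcer2a (r = 0.898, rho = 0.905, exact p = 0.00424, adjusted 0.0170) and Igll1 with Cd79a (r = 0.908, rho = 0.690, exact p = 0.00516, adjusted 0.0177) also passed. The last fell to 0.589 without KO chimeras 3 and 4, and its rho did not pass (adjusted p = 0.119 by exact permutation). In controls, Dntt with Rag1 gave r = 0.890 (adjusted p = 0.0531 by exact permutation) and just missed. Cr2 with Fcer2a gave r = 0.711 and Igll1 with Cd79a r = 0.772 there (both adjusted p = 0.0766). By rho, Cr2 with Fcer2a passed in controls too (0.905, adjusted p = 0.0156).

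The pairs that joined Igll1 to a mature gene did not pass. Igll1 with Cr2 gave r = 0.379 and rho = 0.310 in KO chimeras (exact p = 0.352) and r = 0.578 and rho = 0.476 in controls (exact p = 0.138), and neither passed. Igll1 with Ms4a1 gave r = 0.551 in KO chimeras (exact p = 0.161) and r = 0.752 in controls (exact p = 0.0556). In all, 5 of 12 pairs passed by r in KO chimeras and 2 of 12 in controls, and by rho 5 and 3. Differences in correlation between the groups were not tested.

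**Figure D5:**
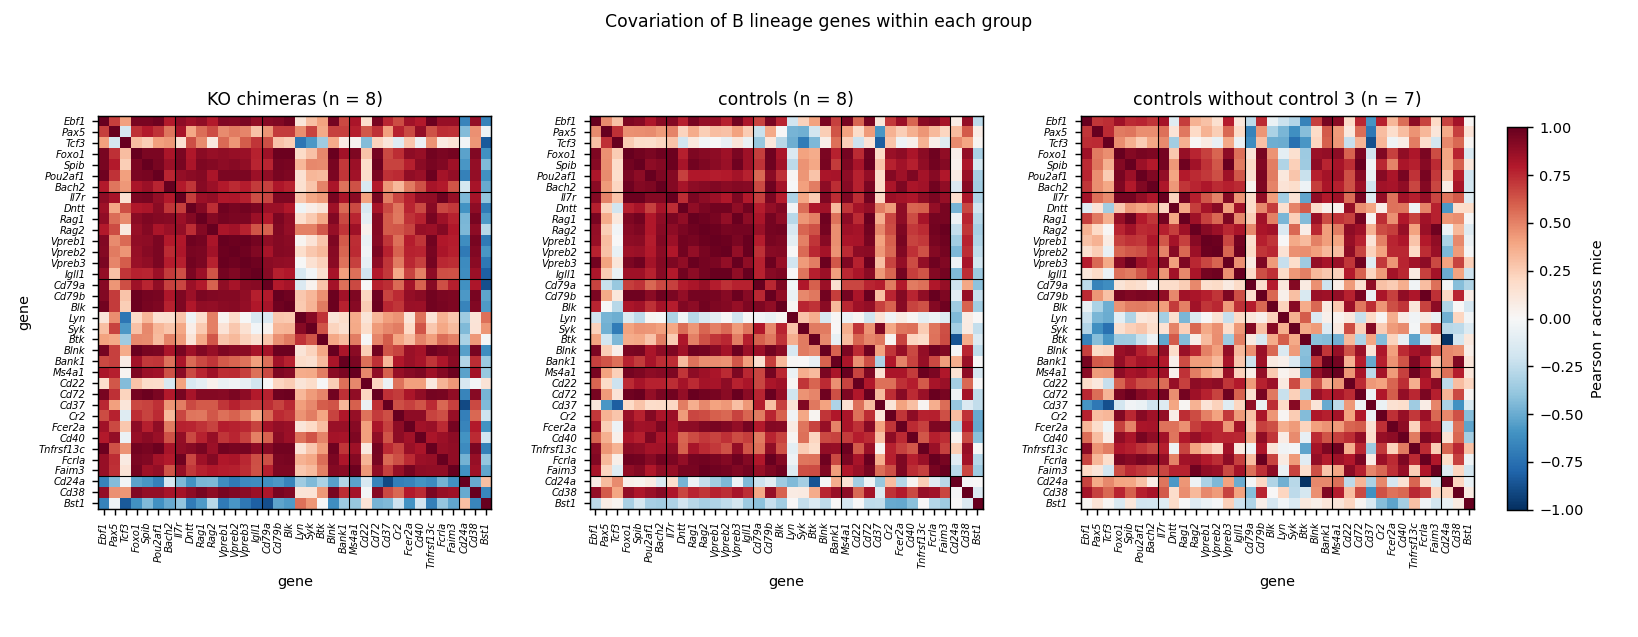
Pearson correlation across mice for every pair of the 36 members, in KO chimeras (left), in controls (middle) and in controls without control 3 (right); lines separate the roles. Most pairs are strongly positive in the left and middle panels, Lyn, Tcf3, Cd24a and Bst1 stand out as pale or blue bands, and the right panel is paler.

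Further genes of the same stages were read from lists chosen by function. Of 15 further pro-B and pre-B genes, none was higher or lower by the test, and their median difference was 0.18. The smallest adjusted p among them was 0.068, for Sox4, a factor needed early in the lineage (0.55). Of 16 further mature B genes with a probe, Cd1d1, which presents lipids, rose (0.40 ± 0.09, adjusted p = 0.00462), and Btla, an inhibitory receptor (-0.79 ± 0.17, adjusted p = 0.00283), Cd180, a relative of toll-like receptors (-0.65 ± 0.14, adjusted p = 0.00256), and Ciita, the master regulator of MHC class II (-0.60 ± 0.18, adjusted p = 0.0228), fell. Ighm and Ighd were not found by name on the array and were not analysed here. Of 15 further genes of B cell receptor signalling, the adaptor Pik3ap1 rose (0.66 ± 0.17, adjusted p = 0.00801), and Dapp1 (-0.38 ± 0.08, adjusted p = 0.00194) and Malt1 (-0.33 ± 0.09, adjusted p = 0.0167) fell. Of 10 cell division genes, Top2a fell (-0.30 ± 0.09, adjusted p = 0.0243) and the other 9 did not pass. Of all genes tested, 10.2% were higher and 12.1% lower, and the counts in the signalling and cell division lists were near these shares.

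Markers of other marrow cells moved with the groups as well. The marker counts here and in the next paragraph stand beside 10.2% of all genes tested that were higher and 12.1% that were lower. Of 7 T cell markers 3 fell (Cd8a by 1.42, Cd247 by 1.01 and Zap70 by 0.86 on the log2 scale), and their mean level was -0.40 to 0.61 in KO chimeras and 0.77 to 1.25 in controls, with no overlap. T cell precursors also make Dntt, Rag1, Rag2 and Il7r. Of 7 plasma cell markers, the antibody-secreting end of the B lineage, 5 fell: Jchain (-0.81), Derl3 (-0.70), Tnfrsf17 (-0.68), Sdc1 (-0.50) and Xbp1 (-0.44), and their mean level was 0.64 to 1.09 in KO chimeras and 1.02 to 1.83 in controls. Of 6 stem and progenitor markers 4 fell, led by Kit (-0.90 ± 0.09), with a mean level of 0.07 to 0.43 in KO chimeras and 0.41 to 0.98 in controls.

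Of 7 plasmacytoid dendritic cell markers 3 fell (Klk1 by 1.12, Ccr9 by 0.71 and Tcf4 by 0.42 on the log2 scale), with a mean level of 1.35 to 1.88 in KO chimeras and 1.50 to 2.16 in controls. None of 8 neutrophil markers passed the test. Of 8 erythroid markers only Hemgn rose (0.44 ± 0.10), a count near the share over all genes. The mean erythroid level was 2.82 to 4.83 in KO chimeras and 3.01 to 4.51 in controls. It was lowest in KO chimeras 1 and 2, which were among the highest in early B genes. The part of these cells in the differences of the B lineage genes was not tested. Control 3, the lowest control in 4 of the 5 B lineage roles, was also the lowest control for the plasmacytoid dendritic cell markers and the next to lowest for the T cell markers, and was not the lowest for plasma cell, neutrophil, erythroid or stem cell markers.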

How the data were processed

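Signal intensity files of the scanner and a table of processed values were deposited by the authors. Per the submitters' processing notes the scans were read by Agilent Feature Extraction, version 10.7 (the file headers give 10.1.1.1). They come from Cy3-labelled total RNA and give a background-corrected intensity per spot. The deposited table holds log2 values that the authors normalised, by quantiles per the labels, and it served as an alternative.

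Outlier and control spots were left out, intensities were divided by each array's 75th percentile, and log2 was taken. Spots of a probe were averaged. Of 55681 probes, 32664 carried the flag for signal over background in 6 or more of 8 mice of one group, and only these were used. A gene's value is that of its brightest such probe. The resulting 23042 gene names were fitted with limma 3.58.1 (R 4.3.3) for 8 KO chimeras against 8 controls, with moderated variances and Benjamini-Hochberg adjustment. Probe positions are those of the array design (mm9). Whether they fall in exons was not analysed here. Array number limits the precision, and no spot was saturated. One targeted gene is not reported here.

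Genes, pairs and further lists were chosen with earlier results of these data known. All 36 members are named, as are list genes past the test and any close to it. Correlations were computed within each group in Python 3.11.15, with exact permutation p-values for 12 pairs. Both the limma step and the permutation step were tested on simulated data. The labels number mice 1 to 8 in both groups. Deviations from the group means correlated at only -0.19 to 0.20 between mice of the same number, so no pairing showed in the values. This cannot show whether the numbers pair mice by design, which the labels do not state. Slides and scan days were tried as blocks. Alternatives also covered background correction, normalisation, the probe filter, the rule for several probes, array weights, and leaving out each mouse.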

Additional observations from a re-analysis of the deposited data

Results flagged for a closer look

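In 10 of 72 sets of values (36 genes in each group of 8 mice), the highest or lowest mouse stood off from its nearest neighbour by more of the whole range than Dixon's limit for 8 values, which chance exceeds in about 1 of 20 sets. The genes covary, so these sets are not independent. Control 3 accounted for 9 of the 10, always as the lowest control. Its values, on the scale of log2 signal over the array's 75th percentile, were -0.39 for Ebf1, -0.50 for Dntt, -4.56 for Rag1, -6.32 for Rag2, 0.28 for Vpreb1, 1.84 for Vpreb3, 4.65 for Cd79b, 3.17 for Blnk and 3.30 for Faim3. For Rag2 the probe was well above background in 7 of 8 controls. The remaining one was Cd37 in control 8, at 5.18, where the next control had 4.40. No KO chimera stood off in this way for any member.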

How the results depend on the processing

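In the main analysis 6 members were higher, 4 lower and 5141 genes called in all. Splitting by scan day moved these counts most, with 4 mice per group. The first day alone gave 0 higher, 0 lower and 1612 genes, and the second day alone gave 11, 2 and 2313. The 10 named members kept their direction on both days. Control 3 was a first-day control and the lowest for the 5 pro-B and pre-B genes among them. The size of their first-day differences leans on it. In Dntt, first-day KO chimeras 2, 3, 4 and 6 were at 3.20, 1.64, 1.77 and 2.14. Controls 4, 5 and 7 were at 1.85, 2.27 and 2.15, and control 3 at -0.50. Ebf1, Rag1, Rag2, Vpreb3 and Cd72 were gained on the second day, and Ebf1, Cd72 and Cd40 with array weights. With the replicate block the counts were 6, 3 and 4729. The block cost only the Cd38 call, and the labels do not state that the numbers pair mice. With slide as a block 5 were higher and 5 lower. This block also takes out control 3, the only array on its slide. Il7r and Cd38 were lost, and Cd79a and Cd37 (read from its brighter probe) gained. Leaving out each mouse gave 5 to 7 higher, 3 to 5 lower and 4395 to 5323 genes, and a median pair correlation of 0.673 to 0.772 in KO chimeras and 0.482 to 0.772 in controls. Dntt was also lost with no filter on dim probes (adjusted p = 0.0600), and Cd40 was gained in 5 settings other than leaving out a mouse. Array brightness as a covariate was added after seeing the data and cost 1 call. No member past the test changed sign under any alternative run. The first scan day held control 3 and the slide of KO chimeras 3 and 4 and control 4. The SE of the Vpreb1 difference was 0.66 that day and 0.15 on the second. What sets the 2 scan days apart was not tested. Low signal limits Rag2, which was not above background in 1 control.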
